A study of Mus musculus with 2 samples.

Results

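The cells described here are the *Apoe*/*Ccl6*-high cells of a mouse *MLL-AF9* acute myeloid leukemia. They were chosen by their own transcript counts: in every cell with 500 or more detected genes, the unique molecular identifiers (UMIs, each standing for 1 captured transcript) of *Apoe*, *Ccl6*, *Cyp4f18* and *Pira2* were summed and divided by the cell's total, and the 10% of cells with the highest share were taken as members. That gave 741 members of 7411 kept cells, out of 8309 cells deposited. The working name for such cells was macrophage-like leukemia cells. Their transcripts bore that name out only in part (macrophage and monocyte markers, below), so they are named here by their leading genes.

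*MLL-AF9* is a fusion oncogene, here carried into lineage-depleted bone marrow by a retrovirus that also expressed YFP, with the leukemia then grown in lethally irradiated recipients. Both groups of donors carried floxed *Kat2a* (Kat2a Flox/Flox) and were given pIpC, which switches on the interferon-responsive *Mx1*-Cre recombinase, and marrow was taken 4-6 weeks later. The WT donors had no Cre (Mx1-Cre -/-) and the KO donors had it (Mx1-Cre+/-), so excision in KO could take place in any cell able to respond to interferon. *Kat2a* encodes a histone acetyltransferase. At terminal disease 5 WT and 4 KO leukemias were stored frozen, pooled by genotype after thawing, sorted as live YFP+ single cells and captured with a 10x Genomics 3′ assay, so each genotype is 1 library of pooled mice, in which single leukemias cannot be told apart. The mapping of cell barcodes to genotype came from analysis code published with the study. The deposited labels do not state it. *Kat2a* itself was not lower in the library labelled KO. It had 9 UMIs in members of the library labelled WT (11.7 UMIs per 1000000, written CPM below, with an interval of 5.36 to 22.3) and 25 in members of the library labelled KO (63.1 CPM, 40.8 to 93.2). The assay reads the 3′ end, which the excised allele keeps, so this gene checks neither label. Among kept cells more were labelled WT (3866) than KO (3545). The study, too, kept more WT than KO cells. For that reason the groups are called the library labelled WT and the library labelled KO, and WT and KO before cells or values stand for those labels.

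With 1 library per genotype no difference has a replicate check, and no p-value is given. Intervals are 95% and exact, and they cover counting error only, since the UMIs of a cell are not independent of each other. The deposited cells numbered 4069 for WT, with 11892536 UMIs in all, and 4240 for KO, with 8585416. Only 28 barcodes occurred in both libraries, and no member of one library shared its barcode with a member of the other.

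Macrophages and monocytes are phagocytes that arise from the same marrow progenitors as neutrophils. As these cells mature they stop dividing and take on one of 2 outfits: neutrophil precursors fill granules in a fixed order with proteases, lactoferrin and antimicrobial peptides, whereas monocytes and macrophages build up lysosomal cathepsins, Fc receptors, scavenger and lectin receptors and secreted chemokines. The fusion oncogene holds leukemic cells at the stage of an immature myeloid progenitor, and cells with features of either outfit occur beside them. Of the 4 genes that chose the members, *Apoe* encodes the lipoprotein that carries lipid out of macrophages. *Ccl6* encodes a chemokine of the CC family that is found in rodents. *Cyp4f18* encodes a cytochrome P450 that hydroxylates leukotriene B4, and *Pira2* encodes an activating paired immunoglobulin-like receptor.

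The 4 genes lie on 3 chromosomes, and GENCODE M21 (GRCm38) places each on the minus strand. *Apoe* (ENSMUSG00000002985) is at chr7:19696109-19699188 and *Pira2* (ENSMUSG00000089942) at chr7:3836812-3845051. *Ccl6* (ENSMUSG00000018927) is at chr11:83587882-83593087 and *Cyp4f18* (ENSMUSG00000003484) at chr8:71988482-72009626. All are protein-coding, with up to 5, 10, 4 and 13 exons in a transcript, in that order. Their promoters are shown because the summed share of these genes chose the members. The sequences are RefSeq's (GRCm38), the 150 bases before each start, 5′ to 3′ on the gene's strand, with matches to a searched motif in capitals. *Apoe* has 3 starts in that table, and the outermost is printed.
*Apoe* (chr7:19699189-19699338): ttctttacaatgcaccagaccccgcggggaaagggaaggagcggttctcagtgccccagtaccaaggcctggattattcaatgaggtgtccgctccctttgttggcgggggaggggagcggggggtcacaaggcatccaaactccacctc
*Ccl6* (chr11:83593088-83593237): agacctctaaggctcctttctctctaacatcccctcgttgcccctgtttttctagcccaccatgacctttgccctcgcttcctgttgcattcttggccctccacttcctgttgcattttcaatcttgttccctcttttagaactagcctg
*Cyp4f18* (chr8:72009627-72009776): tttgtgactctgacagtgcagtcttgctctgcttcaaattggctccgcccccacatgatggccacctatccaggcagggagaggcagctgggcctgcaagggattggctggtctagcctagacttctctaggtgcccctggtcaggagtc
*Pira2* (chr7:3845052-3845201): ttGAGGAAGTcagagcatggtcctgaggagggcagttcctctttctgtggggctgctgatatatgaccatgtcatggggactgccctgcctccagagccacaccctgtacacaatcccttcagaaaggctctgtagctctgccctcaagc

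Letter patterns of 4 kinds were searched on both strands of windows running from 250 bases before to 50 bases after each start. The pattern of the myeloid factor PU.1, GAGGAAGT, was in *Pira2* alone among the 4 genes. It was in 3.20% of all 32851 promoter windows, in 4.07% of 2799 windows of the genes tested, in 5.09% of 216 windows of the genes at least 2-fold higher in members and in 5.81% of 172 windows of the genes at least 2-fold lower. A gene can have several windows, and not every gene had one. The windows stood for 2249 genes tested, 165 higher genes and 154 lower genes. The C/EBP pattern TTGCNNAA was in none of the windows of the 4 genes and in 13.4%, 11.6%, 9.11% and 10.8% of the windows of higher genes, lower genes, genes tested and all promoters. The AP-1 pattern TGANTCA, also in none of the 4, was in 8.80% of the windows of higher genes, 3.49% of those of lower genes and 7.81% of all windows, beside 4.68% for all genes tested. The TATA box pattern TATAAA was in a window of *Apoe* that is not printed. It was in 11.1%, 6.40%, 7.75% and 13.6% of the windows of higher genes, lower genes, genes tested and all promoters. A match is a match of letters and says nothing about binding.

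The levels of the 4 genes are what chose the members and are given as a description. In members of the library labelled WT *Apoe* stood at 5570 CPM (5404 to 5739), against 103 CPM in the other kept cells. In members of the library labelled KO it stood at 5162 CPM (4941 to 5391), against 124. *Ccl6* was at 2423 CPM (2314 to 2535) in WT members and at 3236 CPM (3061 to 3418) in KO members, with 52.8 and 44.4 CPM in the other cells. *Apoe* and *Ccl6* thus made up most of the summed UMIs in both libraries, and *Ccl6* was the only one of the 4 whose level in members was higher in the library labelled KO with intervals that did not overlap. *Cyp4f18* reached 880 CPM (815 to 949) and 730 CPM (648 to 819), with 72.8 and 56.8 CPM elsewhere. *Pira2* was the lowest, at 315 CPM (277 to 358) and 220 CPM (176 to 271), with 43.5 and 24.7 CPM elsewhere, and near-identical *Pira* genes can share its reads, so its counts are uncertain.

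Between cells the 4 genes varied widely. A median WT member had 7 UMIs of *Apoe*, 3 of *Ccl6*, 1 of *Cyp4f18* and 0 of *Pira2*. The highest single-cell counts in that library were 44, 47, 15 and 5. In the library labelled KO the medians were 6, 2, 1 and 0 and the highest counts 39, 50, 8 and 8. *Apoe* was detected in 85.2% of WT members (81.6 to 88.3) and 87.9% of KO members (83.5 to 91.5). *Ccl6* was detected in 80.7% (76.7 to 84.2) and 65.8% (59.97 to 71.4). All 4 genes were detected in 78 WT members (17.0%) and 29 KO members (10.3%), and a single one in 35 (7.61%, 5.36 to 10.4) and 57 (20.3%, 15.7 to 25.5).

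Free RNA in a droplet can place a UMI in a cell that does not express the gene. Cells with the highest share of *S100a8* and *S100a9*, transcripts of neutrophil precursors, were taken as a comparison (the highest 10% of kept cells, those that were members left out: 583 cells in the library labelled WT with a median of 1917 UMIs, 151 in the library labelled KO with 1882). There *Apoe* was detected in 3.26% and 7.28% of cells, never with more than 1 UMI in a cell. *Ccl6* was detected in 8.92% and 10.6% of them, with up to 4 UMIs in a cell, and *Pira2* in 14.9% and 3.31%. The shares in members, whose medians were 1493 and 1217 UMIs, lay above these for all 4 genes.

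**Figure D1:**
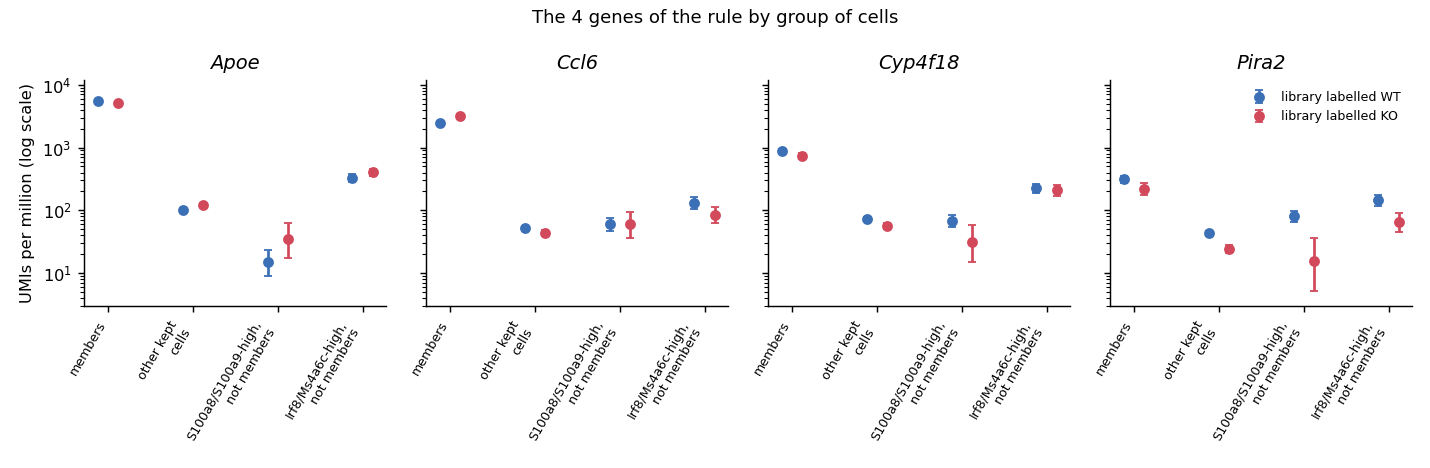
CPM (log axis) of the 4 genes that chose the members, by group of cells (x axis) in the library labelled WT (blue) and the library labelled KO (red), with exact 95% Poisson intervals. Members lie above the other groups drawn, *Apoe* at 5570 and 5162 CPM, with 328 and 405 CPM in *Irf8*/*Ms4a6c*-high cells outside the members.

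The share of the 4 genes had no gap at the cut. The lowest member had 0.329% of its UMIs from them and the highest non-member 0.329% as well (0.3293% and 0.3286% before rounding), the 10 members nearest the cut ran up to 0.335% and the 10 nearest cells outside it down to 0.322%. Within 10% of the cut on either side lay 100 cells, 43 of them members. Members had a median share of 0.766% and a highest one of 4.27%. In 4435 of the other kept cells no UMI of the 4 genes was seen. A member had 3 to 53 UMIs of the 4 genes with a median of 12, and 86 members had 5 or fewer. The members are therefore a range of a graded share, not a cell type set apart by it.

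The 4 genes were picked with earlier results of these data known. Each gene's level in cells chosen on the other 3 is therefore a description as well. Of the cells chosen this way 70.9% to 98.2% were also members, by gene and library. *Apoe* in cells chosen on *Ccl6*, *Cyp4f18* and *Pira2* was at 3887 CPM for WT and 3390 CPM for KO, 18.7-fold and 14.7-fold above the remaining cells. *Ccl6* in cells chosen without it was 15.7-fold and 13.4-fold higher. *Cyp4f18* was 8.67-fold and 8.95-fold higher and *Pira2* 5.78-fold (log2 2.29 to 2.77) and 6.85-fold (log2 2.37 to 3.17). The 4 transcripts occurred together in the same cells in each library, which the picking of the genes may have built in. With every cell thinned to 1000 UMIs the pattern was the same: *Ccl6* was found in 44.5% of WT cells with an *Apoe* UMI (40.5 to 48.5) and in 6.67% of WT cells without one, and in 24.9% (21.1 to 29.0) and 4.63% of KO cells. *Pira2* went with *Apoe* least, in 17.7% against 5.70% of WT cells and 7.32% against 2.85% of KO cells.

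The members had fewer UMIs and detected genes per cell than the other kept cells. They had medians of 1493 UMIs and 744 genes for WT and 1217 UMIs and 646 genes for KO, against 2830 UMIs and 1109.5 genes, and 1947 UMIs and 839 genes, in the other kept cells. Thinned to 1000 UMIs, which left out 37 WT and 65 KO members, they had 572 and 567 genes against 561 and 555, so at equal depth members had slightly more genes, not fewer. Mitochondrial genes took a median of 0.349% and 0.455% of their UMIs against 0.309% and 0.418% in the other cells, and ribosomal protein genes 14.1% and 12.4% against 14.4% and 11.9%. Since a share of few UMIs varies more, the counts of genes, the member shares and the named genes whose 2-fold difference ended there are given below also for cells with 1000 or more genes.

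Macrophage markers were higher in members, but the list was covered in part. Its 20 genes summed to 1256 CPM in WT members and 1464 CPM in KO members, 3.46-fold and 4.15-fold above the other cells. *Cd68*, a lysosomal glycoprotein of phagocytes, was at 489 and 543 CPM against 133 and 167. *Csf1r*, the receptor of macrophage colony-stimulating factor, was at 130 and 114 CPM against 21.4 and 20.2, and *Adgre1*, which encodes F4/80, at 133 and 189 CPM against 48.9 and 60.9. *Lpl*, a lipoprotein lipase, was at 136 and 114 CPM against 14.2 and 8.64, and *Trem2*, a lipid-sensing receptor, at 52.1 and 73.2 CPM against 5.41 and 8.24.

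Markers of resident tissue macrophages were missing. *Mertk*, *Spic*, *Cd5l* and *Mrc1* had no UMI in any member, and *Axl* and *Cd163* had 1 each over both libraries. *Vcam1* and *Slc40a1*, the iron exporter, were lower in members, with 2 and 10 UMIs for WT and 2 and 1 for KO. The complement genes *C1qa*, *C1qb* and *C1qc* were found in 3 WT members with 29 UMIs and 8 KO members with 68 UMIs, and *C1qb*, the highest in KO members, had 48 of them. Only 5 of the 20 genes had a UMI in at least 10% of members or of other cells, which was the filter for a comparison. *Csf1r*, *Gpnmb* and *Lpl* passed it through the members alone (15.5%, 10.4% and 11.6% of members, 4.87%, 1.75% and 1.86% of other cells). Such a filter favours genes that are higher where they pass, so the counts of genes below describe the lists and support nothing by themselves.

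Monocyte genes were higher across most of their list. The 12 genes summed to 5897 and 5927 CPM, 3.01-fold and 3.24-fold above the other cells, and the median member had 0.577% and 0.607% of its UMIs from them, against 0.110% and 0.104%. Of the 11 that passed the filter 10 were at least 2-fold higher in both libraries, beside 7.42% of all genes that passed it. *Ctss*, a cathepsin of antigen-presenting cells, reached 1422 and 1590 CPM against 111 and 181. *Klf4*, a transcription factor of monocyte differentiation, was at 113 and 116 CPM against 12.3 and 12.2, and *Cd14*, the co-receptor for lipopolysaccharide, at 440 and 457 CPM against 78.1 and 69.9. *Ccr2*, the receptor that releases monocytes from marrow, was at 347 and 346 CPM against 98.1 and 99.8. The exception was *Ly6c2*, the surface marker of classical monocytes, at 973 and 889 CPM in members and 1077 and 898 CPM in the other cells.

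Across all genes, 2925 had a UMI in at least 10% of members or of other kept cells, the 4 choosing genes left out. In both libraries 217 of them (7.42%) were at least 2-fold higher in members, and 194 (6.63%) were at least 2-fold lower. The median log2 ratio over all of them was −0.09 for WT and −0.05 for KO. Restricted to cells with 1000 or more genes, where 224 WT and 92 KO cells were chosen, the counts were 124 and 32, with 122 and 26 of these genes among the first ones. With all cells thinned to 1000 UMIs they were 174 and 160, and with the UMIs split at random, members chosen on one part and levels read from the other, 205 and 192.

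The genes furthest above the other cells encoded lectin and signal-regulatory receptors, secreted proteins and stress factors. Most of them passed the filter through the members alone, so the filter helped to place them here and their rank is a description. *Clec4a1*, for one, had a UMI in 13.4% of members and 0.36% of other cells. *Clec4a1*, a C-type lectin receptor, was at 145 CPM in WT members (log2 ratio 5.98, 5.34 to 6.67) and 83.3 CPM in KO members (7.29, 5.80 to 9.25), against 2.29 and 0.53 CPM. Its neighbour *Clec4a3* was at 215 and 124 CPM against 5.5 and 2.39. The signal-regulatory receptor genes *Sirpb1c* and *Sirpb1b* were at 335 and 217 CPM and at 223 and 103 CPM, against at most 4.77 CPM in other cells. Such family members are near-identical in parts, and how their reads were split is uncertain.

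Enzymes of lipid mediators were among these genes. *Pla2g7*, which inactivates platelet-activating factor, was at 168 and 93.4 CPM in members against 3.21 and 1.33. *Dpep2*, a dipeptidase that cleaves leukotriene D4, was at 427 and 295 CPM against 23.1 and 17.1. *Wfdc17*, a small secreted protein of activated macrophages, had the highest level of the 15 genes, at 1875 and 1257 CPM against 118 and 67.8, and a UMI in 64.6% of all members and 11.3% of other cells.

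The remaining ones were spread over signalling, matrix and stress. *Il13ra1*, a receptor subunit for IL-13 and IL-4, was at 194 and 146 CPM against 10.8 and 8.37, and *Ms4a8a*, a membrane-spanning protein, at 117 and 50.5 CPM against 3.85 and 1.20. *Fn1*, fibronectin, was at 354 and 232 CPM against 24.6 and 6.78. *Ccl2*, a chemokine that attracts monocytes, was at 134 and 336 CPM against 9.45 and 11.8, but 10 cells held 48.5% of its UMIs in WT members and 72.9% in KO members. *Atf3* and *Nupr1*, both induced by stress, were at 96.4 and 98.4 CPM and at 107 and 159 CPM, with 10 cells holding 77.8% of the *Nupr1* UMIs in KO members. *Socs3*, a feedback inhibitor of cytokine signalling, was at 93.8 and 134 CPM against 3.85 and 8.90, and *Pid1* at 117 and 103 CPM against 6.24 and 7.44.

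**Figure D2:**
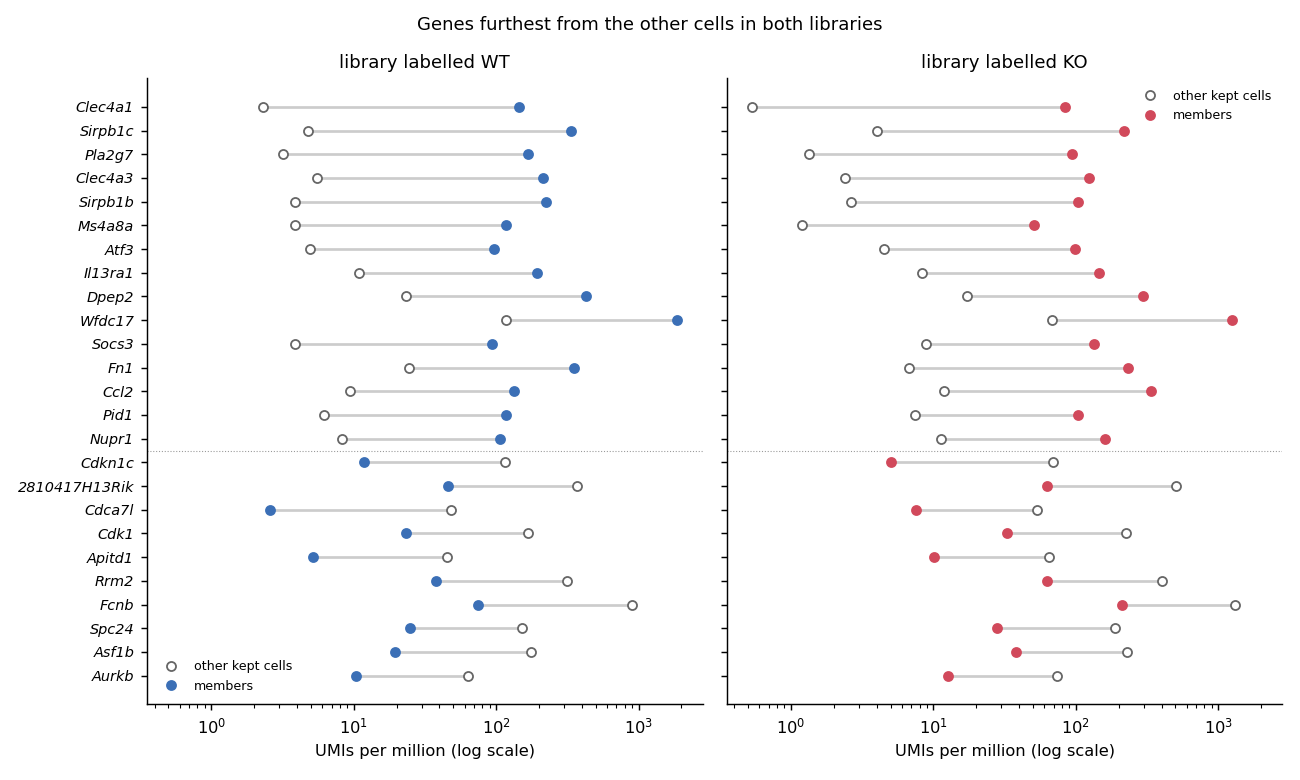
CPM (log axis) in members (filled) and other kept cells (open) of each library for the 15 genes with the highest and the 10 with the lowest log2 ratio, ranked by the library in which the ratio is nearer 0. *Clec4a1* and *Sirpb1c* lead the upper set, and the lower set runs from *Cdkn1c* to *Aurkb*.

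The genes furthest below were mostly genes of cell division. *2810417H13Rik*, which encodes the PCNA-associated factor, was at 45.6 CPM in WT members and 63.1 CPM in KO members, against 371 and 502 CPM in the other cells. *Rrm2*, a subunit of ribonucleotide reductase, was at 37.8 and 63.1 CPM against 314 and 400, *Cdk1*, the mitotic kinase, at 23.5 and 32.8 CPM against 168 and 225, and *Aurkb*, another one, at 10.4 and 12.6 CPM against 63.8 and 73.4. *Spc24* and *Apitd1* of the kinetochore, the histone chaperone *Asf1b* and *Cdca7l* belonged to the same set, at 2.61 to 37.9 CPM in members. The other 2 of the 10 were *Cdkn1c*, a cyclin-dependent kinase inhibitor, at 11.7 and 5.05 CPM against 116 and 68.6, and *Fcnb*, ficolin B of granulocyte precursors, at 74.3 and 212 CPM against 899 and 1307. In cells with 1000 or more genes 7 of the 8 cycle genes were no longer 2-fold lower, with log2 ratios from −0.76 for *2810417H13Rik* to −0.95 for *Cdk1* in the library nearer 0, and *Apitd1*, *Cdkn1c* and *Fcnb* were at −1.12, −1.17 and −1.36.

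The lists of cycle genes told the same. The 17 genes of S phase summed to 516 CPM in WT members and 820 CPM in KO members against 2112 and 2644. Of the 13 that passed the filter 11 were at least 2-fold lower in both libraries, beside 6.63% of all genes passing it. For the 17 genes of G2 and M phase the sums were 371 and 573 CPM against 1810 and 2261, and 11 of 11 were lower. In thinned cells 10.6% of WT members and 17.6% of KO members had any UMI of the G2 and M phase list, against 36.3% and 46.3% of other cells. A few members carried most of what there was: 10 cells held 71.2% and 72.7% of those UMIs.

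Neutrophil granule genes were lower in members as lists, with exceptions among single genes. Primary granule genes, which come first, summed to 3315 CPM in WT members and 4720 CPM in KO members against 15751 and 13795. Of the 6, 4 were at least 2-fold lower in both libraries, beside 6.63% of all genes that passed the filter. *Elane*, neutrophil elastase, was at 831 and 1487 CPM against 8565 and 7697, *Mpo*, myeloperoxidase, at 137 and 384 CPM against 1274 and 1351, and *Ms4a3* at 50.8 and 169 CPM against 727 and 824. *Prtn3*, proteinase 3, was not among the 4, at 2067 and 2115 CPM against 2840 and 2137.

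Secondary and tertiary granule genes summed to 31772 and 19386 CPM against 71853 and 66358. Of 8, 4 were at least 2-fold lower and 1 at least 2-fold higher, beside 6.63% and 7.42% of all genes that passed the filter. *Camp*, the cathelicidin peptide, was at 1285 and 2724 CPM against 15613 and 14591, and *Ngp*, neutrophilic granule protein, at 4846 and 7265 CPM against 28176 and 32718. *Chil3*, a chitinase-like protein that monocytes also make, was at 23107 CPM in WT members and 23645 CPM in WT non-members, and at 8338 and 16155 CPM in the library labelled KO. *Mmp8*, neutrophil collagenase, went the other way from its list, at 454 CPM in WT members against 49.99 (log2 3.18, 2.98 to 3.38) and 101 CPM in KO members against 30.8 (1.71, 1.19 to 2.20).

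How evenly the granule transcripts were spread differed between the libraries. In the library labelled KO 10 of 281 members carried 46.9% of the UMIs of the secondary and tertiary list and 69.5% of those of the mature neutrophil list, and in the library labelled WT 10 of 460 carried 15.2% and 38.9%. The median member had 2.27% of its UMIs from the secondary and tertiary list for WT and 0.417% for KO, against 6.12% and 4.03% in the other cells. *Chil3* gave most of that list's UMIs in WT members, and the spread of the list without it was not computed. *Camp* and *Ngp* were higher in KO members than in WT members. Mature neutrophil genes summed to 8226 and 5579 CPM against 39124 and 31285, with *S100a8* at 3775 and 3037 CPM against 19941 and 18798.

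**Figure D3:**
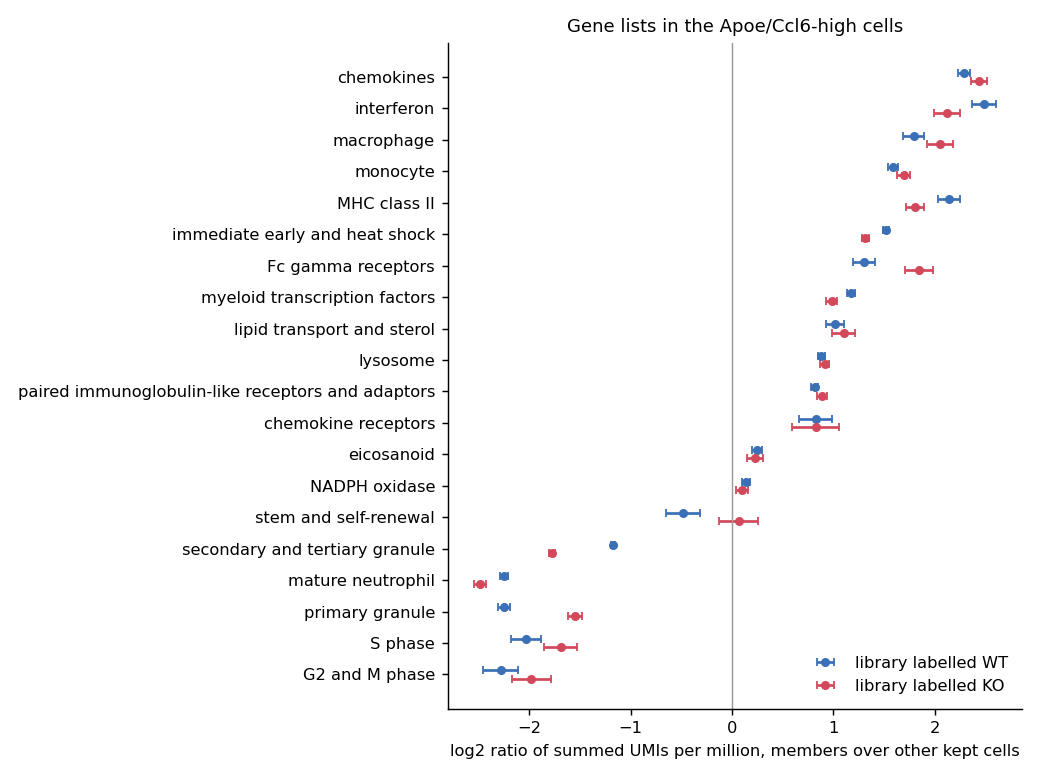
Log2 ratio of summed CPM in members over other kept cells, for 20 gene lists in the library labelled WT (blue) and the library labelled KO (red), with exact 95% counting intervals. Chemokine, interferon, macrophage and monocyte lists lie to the right of 0 in both libraries, granule and cell cycle lists to the left, and NADPH oxidase genes near 0 at 0.14 and 0.10.

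Among secreted ligands, the 13 chemokine genes other than *Ccl6* summed to 3939 CPM in WT members and 4077 CPM in KO members, 4.88-fold and 5.43-fold above the other cells. Of the 5 that passed the filter, *Ccl2* and *Ccl4* did so through the members alone, with a UMI in 11.9% and 11.7% of them and in 1.81% and 4.48% of other cells. *Ccl3*, which recruits monocytes and neutrophils, was the highest at 1714 and 1653 CPM against 337 and 331, and was seen in 66.4% of members. *Ccl9*, another rodent CC chemokine, was at 644 and 921 CPM against 162 and 198, and *Cxcl2*, which attracts neutrophils, at 1234 and 863 CPM against 256 and 162. *Ccl24* and *Ccl7* had 25 and 11 UMIs in KO members, all in at most 10 cells, and none in WT members.

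Receptors were higher by less. The 6 chemokine receptor genes were 1.78-fold higher in each library, with *Ccr1*, a receptor for *Ccl3* and its relatives, at 373 and 328 CPM against 225 and 189. The 16 paired immunoglobulin-like receptor and adaptor genes that could be matched were 1.76-fold and 1.85-fold higher. *Pirb*, the inhibitory partner of the *Pira* receptors, was at 225 and 119 CPM against 61.6 and 35.4. *Lilrb4a*, another inhibitory receptor, was at 237 and 300 CPM against 32.5 and 28.8. The adaptors through which activating receptors signal were abundant and higher too, *Tyrobp* (DAP12) at 4670 and 4241 CPM against 2694 and 2183 and *Fcer1g* at 2686 and 2138 CPM against 1538 and 1219. *Fcgr3*, an activating IgG receptor, was at 777 and 949 CPM against 294 and 222.

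Genes of degradation and lipid handling came next. The 17 lysosome genes summed to 9791 and 11273 CPM against 5319 and 5976. Of the 16 that passed the filter 7 were at least 2-fold higher in both libraries, beside 7.42% of all genes passing it, and none 2-fold lower. *Lgmn*, an asparaginyl protease, was at 185 and 204 CPM against 6.33 and 25.5, *Ctsc*, which activates granule proteases, at 615 and 684 CPM against 98.9 and 124, and *Psap*, the precursor of saposins, at 1168 and 1214 CPM against 233 and 268.

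*Apoe* is known as a target of the liver X receptors, and the other genes of lipid transport and sterol metabolism were mostly too rare to compare. Only 3 of 21 passed the filter. *Npc2*, which moves cholesterol out of lysosomes, was at 984 and 1239 CPM against 478 and 530, *Plin2*, a coat protein of lipid droplets, at 172 and 215 CPM against 90.9 and 110, and *Nr1h2*, a liver X receptor, at 82.1 and 65.6 CPM against 82.5 and 59.1. *Abca1*, the cholesterol exporter, had 1 UMI in the members of each library, and *Nr1h3*, the other liver X receptor, had none. *Apoc1*, next to *Apoe* in the genome, had 39 UMIs in WT members and 4 in KO members (50.8 and 10.1 CPM against 4.22 and 1.06).

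*Cyp4f18* acts on leukotriene B4, and the genes of that pathway did not differ in one direction. Of the 21 eicosanoid genes 9 passed the filter. In both libraries 1 was at least 2-fold higher and 4 at least 2-fold lower, beside 7.42% and 6.63% of all genes passing it. *Alox5ap*, which presents arachidonate to 5-lipoxygenase, was at 2480 and 2042 CPM against 1382 and 1198. *Lta4h*, which makes leukotriene B4, was at 92.5 and 141 CPM against 412 and 398, and *Alox5* itself at 30.0 and 5.05 CPM against 57.7 and 44.4, the latter from 2 UMIs. *Ltb4r1*, the receptor, was at 375 and 194 CPM against 419 and 341. *Cyp4f16*, a relative of *Cyp4f18*, was the one that was higher, at 93.8 and 55.5 CPM against 27.8 and 22.5, and *Ptgs1*, cyclooxygenase 1, was at 5.21 and 12.6 CPM against 69.6 and 49.3.

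Of the 7 myeloid transcription factors that passed the filter 3 were at least 2-fold higher in both libraries and 1 at least 2-fold lower. Over all genes that passed the filter these shares were 7.42% and 6.63%. *Cebpb*, a C/EBP factor of mature myeloid cells, was at 5133 and 4344 CPM against 1711 and 1602, *Zeb2* at 219 and 217 CPM against 72.6 and 41.2, and *Id2* at 1703 and 1285 CPM against 455 and 550. *Cebpe*, needed for secondary granules, was at 163 and 194 CPM against 555 and 522. *Spi1*, which encodes PU.1, was at 870 and 866 CPM against 685 and 727. *Irf8*, a factor of monocyte commitment, was at 369 and 295 CPM against 157 and 93.6.

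Immediate early and heat shock genes, which also answer to thawing and sorting, summed to 15743 and 17604 CPM against 5493 and 7072. *Dusp1*, a phosphatase induced by stress, was at 4420 and 5281 CPM against 1068 and 1636, *Fos* at 4574 and 4526 CPM against 1405 and 1777 and *Hspa1a* at 115 and 164 CPM against 19.2 and 14.5. Their part in the other differences was not tested. *Ifitm3* carried most of the interferon list, at 870 and 1202 CPM against 101 and 223. *Cybb*, the catalytic subunit of the NADPH oxidase, was at 653 and 384 CPM against 287 and 177, while the whole oxidase list was 1.1-fold and 1.07-fold higher.

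Genes of antigen presentation were concentrated in few members. The MHC class II list summed to 1165 CPM in WT members and 3302 CPM in KO members against 264 and 945. *Cd74*, the invariant chain, gave 363 and 663 UMIs, of which 10 cells held 95.9% and 84.2%. Counting *H2-Aa*, *H2-Ab1*, *H2-Eb1* and *Cd74* together, 6 WT members (1.3%, 0.480 to 2.82) and 18 KO members (6.41%, 3.84 to 9.94) had 5 or more UMIs, and they held 95.3% and 93.6% of those UMIs. *H2-DMa*, which loads peptides in lysosomes, was spread more widely, at 257 and 459 CPM against 106 and 169, and stayed at 245 and 403 CPM against 106 and 153 without the cells that had 5 such UMIs. The regulator *Ciita* had no UMI.

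A set of 2 WT and 5 KO members had 5 or more UMIs of the C1q genes, and 5 of these 7 also had 5 or more of the MHC class II genes. No other kept cell reached that number of C1q UMIs. *Retnlg*, a secreted protein of mature neutrophils, reached 5 UMIs in 7 WT and 2 KO members, which held 94.7% and 63.6% of its UMIs. Without the kept cells that met any of these 3 limits, 220 genes were at least 2-fold higher and 194 at least 2-fold lower in members.

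Erythroid, megakaryocyte, mast cell and basophil, and T and NK cell markers were lower in members than in the other kept cells. In members the erythroid list had 1.3 and 12.6 CPM against 223 and 579, the megakaryocyte list 6.52 and 20.2 CPM against 28.5 and 180, and the mast cell and basophil list 15.6 and 73.2 CPM against 100 and 204. The T and NK cell list had 10.4 and 85.8 CPM against 211 and 331, and in members *Nkg7* gave all of it, while none of *Cd3e*, *Cd3g*, *Cd3d* or *Ncr1* was seen. The B cell list had 69.1 and 119 CPM against 54.6 and 78.1, in members all from *Cd79b*. Dendritic cell genes were rare but higher in members, at 26.1 and 75.7 CPM against 4.68 and 8.64. In members 10 cells held 85.0% and 73.3% of their UMIs, and *Xcr1*, *Clec9a* and *Siglech* had no UMI. The cells were sorted for YFP, which the retrovirus carries, and whether host cells were among the members was not tested. Eosinophil genes were at 35.2 CPM in WT members against 96.7 and at 109 CPM in KO members against 76.8.

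Genes of stem and self-renewal programs had no common direction. The list had 418 CPM in WT members against 584 and 568 CPM in KO members against 542. *Hoxa9*, a target of the *MLL-AF9* fusion, was at 103 and 101 CPM against 185 and 121, and *Myb* at 43.0 and 73.2 CPM against 149 and 149. *Hoxa10* was at 96.4 CPM against 115 for WT and 134 CPM against 83.5 for KO.

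The levels of these lists differed step by step with the share of the 4 genes, also among cells that were not members. In cells without any UMI of the 4 genes monocyte genes stood at 1312 CPM for WT and 1421 CPM for KO. They were at 4463 and 3764 CPM in cells ranked between 10 and 20%, at 5310 and 5518 CPM in those ranked between 5 and 10% and at 6984 and 7864 CPM in the highest 2%. Primary granule genes went from 17383 and 14516 CPM to 1982 and 2174 CPM over the same steps, and S phase genes from 2195 and 2844 CPM to 286 and 376 CPM. The steps were monotonic for monocyte, chemokine and lysosome genes in both libraries and broke once for primary granule genes, which were at 5015 CPM between 5 and 10% and 5561 CPM between 2 and 5% in the library labelled KO. Median depth was 2890 and 1931 UMIs in the first step, highest in the second at 3223 and 2314, and 1263 and 1121 in the last.

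**Figure D4:**
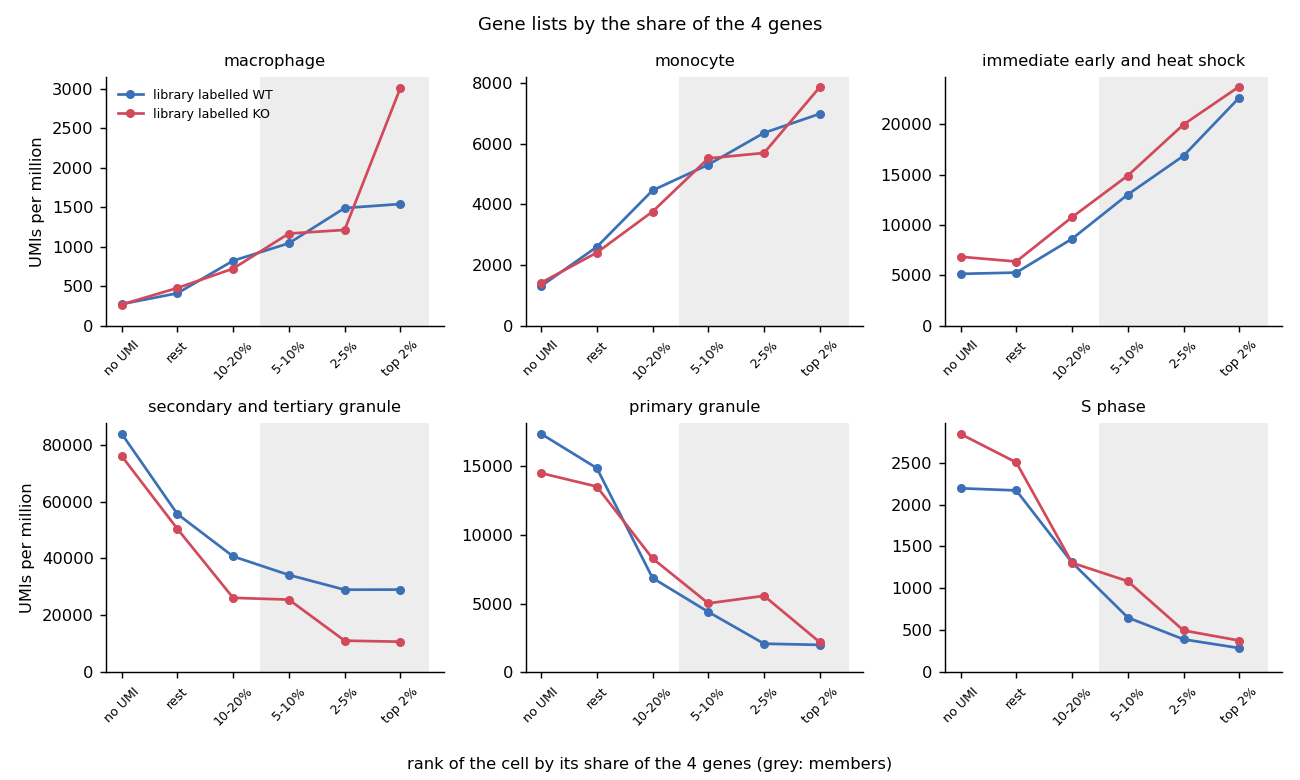
Summed CPM (y axis) of 6 gene lists in kept cells ordered by the share of the 4 genes (x axis), from cells with no such UMI to the highest 2%, for each library, with members on grey. Monocyte genes climb from 1312 and 1421 CPM to 6984 and 7864 CPM, and primary granule and S phase genes decline.

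Members differed by the gene that led them. *Apoe* had the most UMIs of the 4 in 289 WT members (62.8%) and 180 KO members (64.1%), and *Ccl6* in 117 (25.4%) and 76 (27.0%). *Cyp4f18* led in 23 and 12, *Pira2* in 5 and 2, and the rest were tied. Monocyte genes were at 6196 and 6127 CPM in members led by *Apoe* and at 5315 and 5575 CPM in those led by *Ccl6*. *Ms4a6c*, a monocyte membrane protein, was at 1020 CPM (934 to 1112) and 1296 CPM (1161 to 1443) where *Apoe* led and at 787 CPM (663 to 928) and 592 CPM (455 to 758) where *Ccl6* led.

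Mature neutrophil genes went with *Ccl6*. They were at 15850 and 9815 CPM in members led by *Ccl6* and at 5227 and 4105 CPM in those led by *Apoe*. *S100a8* was at 6934 CPM (6554 to 7330) against 2524 CPM (2388 to 2667) among WT members, and at 5547 CPM (5108 to 6013) against 2208 CPM (2030 to 2397) among KO members. Few cells carried these values: 10 KO members held 69.5% of the UMIs of the list and 71.1% of those of *S100a8*, and 10 WT members 38.9% and 39.8%. *Retnlg*, of which 10 cells held 96.4% in WT and 89.4% in KO members, was at 821 and 461 CPM where *Ccl6* led, and at 7.91 and 42.7 CPM where *Apoe* led. *Fn1* and *Ctss* differed by less than their counting intervals in the library labelled WT, at 374 against 350 CPM and 1424 against 1447 CPM, and *Fn1* was at 395 CPM (285 to 534) against 171 CPM (124 to 229) in the library labelled KO. These groups were formed on the same counts that chose the members, and no order among them was tested.

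Of the cells with the highest share of *Irf8* and *Ms4a6c*, taken in the same way as monocyte-directed cells, 252 of 741 were also members, 34.0% of each set. Within libraries they were 31.5% of WT members (27.3 to 36.0) and 38.1% of KO members (32.4 to 44.0), beside 9.16% and 10.9% of all kept cells. Of the *S100a8*/*S100a9*-high cells 7 were WT members and none were KO members, which allows a share of up to 1.07% of them (3 of 281). Such cells were 15.3% of all kept WT cells and 4.26% of all kept KO cells.

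Members outside the *Irf8*/*Ms4a6c*-high cells (315 WT, 174 KO) were set against *Irf8*/*Ms4a6c*-high cells outside the members (209 and 280). Macrophage genes were higher in the members, at 1250 and 1608 CPM against 740 and 763, and immediate early and heat shock genes were at 15663 and 17672 CPM against 6290 and 8930. Within the macrophage list *Cd68* was at 447 and 539 CPM against 355 and 427, and *Lpl* at 177 and 123 CPM against 49.8 and 43.8. Other lists were close to shared. Lysosome genes were at 9502 and 10946 CPM against 7610 and 9244, and MHC class II genes at 953 and 3997 CPM against 816 and 3618. Lipid transport and sterol genes were at 1530 and 1806 CPM against 1392 and 1477, log2 ratios of 0.14 (−0.0036 to 0.28) and 0.29. G2 and M phase genes were at 274 and 555 CPM in the members against 1913 and 1725 in the other set, and primary granule genes at 3301 and 4690 CPM against 9548 and 8309. Later neutrophil genes went the other way: secondary and tertiary granule genes were at 32859 and 23246 CPM in the members against 16387 and 7169. Mature neutrophil genes were at 11075 and 7709 CPM, log2 ratios of 3.43 (3.31 to 3.55) and 2.37 (2.25 to 2.49). Over all members, 10 cells held 38.9% (WT) and 69.5% (KO) of the mature neutrophil UMIs. The monocyte list, which holds *Irf8* and *Ms4a6c*, was lower in the members, at 4932 and 4639 CPM against 6362 and 5918. *Cd14* was at 461 and 491 CPM against 59.4 and 65.7, and *Ly6c2* at 934 and 737 CPM against 2263 and 1429. *Csf1r* was at 118 and 103 CPM against 69.0 and 80.3, with the interval of the log2 ratio reaching across 0 in the library labelled KO (−0.40 to 1.09).

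The library labelled WT had 460 members among 3866 kept cells, 11.9% (10.9 to 13), and the library labelled KO had 281 among 3545, 7.93% (7.06 to 8.87). The log2 ratio of the shares was −0.59. In cells with 1000 or more genes the shares were 10.7% (9.36 to 12.0) and 8.73% (7.09 to 10.6), whose intervals overlap, and with cells thinned to 1000 UMIs they were 11.6% (10.6 to 12.7) and 8.18% (7.27 to 9.16). Fewer than 500 genes were found in 203 WT and 695 KO cells, and with every deposited cell the shares were 11.3% and 8.73%. Genotype, pool, capture and depth cannot be told apart in this design.

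Within members, 1889 genes had a UMI in at least 10% of the cells. Of these 29 (1.54%) were at least 2-fold higher in the library labelled KO, and 45 (2.38%) at least 2-fold lower. In the other kept cells, which come from the same libraries, 7 of the 1889 genes were at least 2-fold higher and 20 at least 2-fold lower. There 25 of the 29 and 42 of the 45 had the same direction as in members, 2 and 11 of them past 2-fold. KO members held 396155 UMIs and the other KO cells 7524101, so ratios in members carry more counting error. The median log2 ratio over the 1889 genes was 0.05 in members and 0.05 in other cells. Among members with at least 2 of the 4 genes detected, 22 of the 29 and 37 of the 45 were past 2-fold again. In cells with 1000 or more genes 10 of the 29 and 19 of the 45 were.

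The 10 genes furthest above in KO members included a pair of tetraspanins. *Cd81*, one of them, was at 70.4 CPM in WT members and 288 CPM in KO members, a log2 ratio of 2.03 beside 0.81 in the other cells. *Cd63*, a tetraspanin of granules and lysosomes, was at 455 and 1194 CPM (log2 1.39 beside 0.30). *Cd74* was at 473 and 1674 CPM (1.82 beside 4.24), with the concentration in few cells given above. *Mpo* was at 137 and 384 CPM (1.49 beside 0.08), and 10 cells held 68.6% and 66.4% of its UMIs. *Ccl2*, at 134 and 336 CPM, had a log2 ratio of 1.32 beside 0.32.

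The others of the 10 highest were *Fkbp3*, a nuclear prolyl isomerase, at 57.3 and 235 CPM (log2 2.03 beside 0.62), *Bmyc*, a relative of *Myc*, at 75.6 and 232 CPM (1.62 beside 0.83), and *Rgcc*, a regulator of the cell cycle, at 116 and 336 CPM (1.53 beside 0.19). *Gatm*, of creatine synthesis, was at 67.8 and 187 CPM (1.46 beside 0.10) and *Ube2e3*, a ubiquitin-conjugating enzyme, at 63.9 and 167 CPM (1.38 beside 0.72). None of these 5 was 2-fold higher in the members chosen anew among cells with 1000 or more genes. There the log2 ratios were 0.79, 0.016, 0.995, 0.59 and 0.48 in the order given. For these 5 genes the 10 highest cells held between 36.5% and 45.2% of the UMIs.

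The 10 genes furthest below in KO members included *Mmp8* and *Chil3* of the secondary and tertiary granule list. *Mmp8* was at 454 CPM in WT members and 101 CPM in KO members (log2 −2.17, −2.68 to −1.69, beside −0.70 in the other cells), and *Stfa1*, a cysteine protease inhibitor with near-identical copies, at 444 and 78.3 CPM (−2.51 beside −1.09). With every deposited cell these ratios were −1.13 and −1.25, and in cells with 1000 or more genes −1.37 for *Mmp8* and −0.06 for *Stfa1*. *Chil3*, the most abundant of these, was at 23107 and 8338 CPM (−1.47, −1.52 to −1.42, beside −0.55). *Gpnmb*, a glycoprotein of lipid-loaded macrophages, was at 137 and 27.8 CPM (−2.30, −3.35 to −1.40, beside −1.63), the latter from 11 UMIs. *Cd38*, an ectoenzyme that consumes NAD, was at 134 and 37.9 CPM (−1.83 beside −1.10).

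*Pilra*, an inhibitory receptor, was at 233 and 70.7 CPM (log2 −1.72 beside −0.50), and *Tln1*, talin, at 274 and 101 CPM (−1.44 beside −1.23). *Smc6*, of the genome maintenance complex SMC5/6, was at 112 and 32.8 CPM (−1.77 beside −0.55) and *Eif4e3* at 124 and 42.9 CPM (−1.53 beside −0.53), from 13 and 17 UMIs in KO members. In cells with 1000 or more genes *Pilra* was at −0.23 and *Smc6* at −0.63, both short of 2-fold. *Xist*, the RNA of the inactive X chromosome, was at 330 CPM (290 to 373) in WT members and 73.2 CPM (49.0 to 105) in KO members, and the Y-linked *Eif2s3y* at 10.4 CPM (4.50 to 20.5) and 129 CPM (95.9 to 169). In the other kept cells these genes were at 272 and 98.5 CPM and at 12.1 and 88.0 CPM. The libraries thus differ in sex-linked transcripts in members as in the rest, and the part of the pools' makeup in the other differences was not tested.

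**Figure D5:**
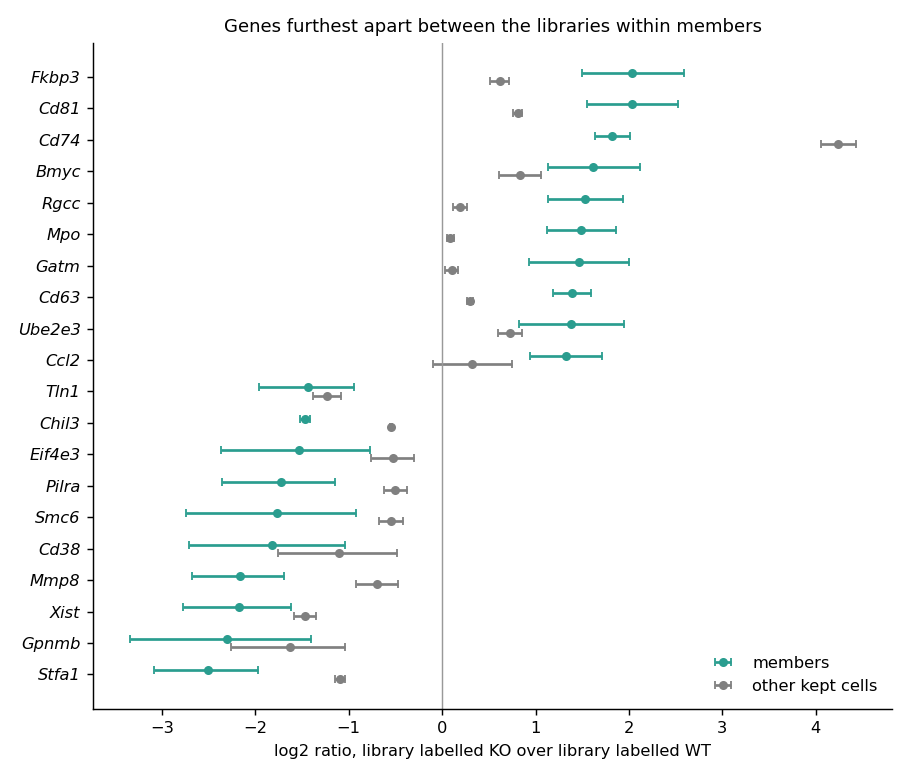
Log2 ratio of KO over WT CPM in members (green) and in other kept cells (grey), for the 10 genes with the highest and the 10 with the lowest ratio in members, with exact 95% counting intervals. *Cd81* and *Fkbp3* lie at 2.03 in members, *Stfa1* at −2.51, and *Cd74* is further from 0 in the other cells, at 4.24.

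The lists differed between the libraries to unlike degrees. Within members the log2 ratio of the library labelled KO over the library labelled WT was 0.22 (0.07 to 0.37) for the macrophage list, 0.01 (−0.07 to 0.08) for the monocyte list and 0.05 (−0.04 to 0.14) for chemokines. It was 0.51 (0.42 to 0.60) for primary granule genes and −0.71 (−0.75 to −0.68) for secondary and tertiary granule genes, beside −0.19 and −0.11 in the other kept cells. Of the 6 secondary and tertiary genes compared, 3 were at least 2-fold lower in KO members, beside 2.38% of all genes compared. *Chil3* (−1.47) gave most of that list's UMIs in WT members, so the list's value largely follows this gene. *Camp* (1.08) and *Ngp* were higher in KO members. S phase genes had 0.67 (0.45 to 0.88) in members and 0.32 in the others. The MHC class II list had 1.5 (1.38 to 1.63) beside 1.84, the interferon list 0.49 (0.34 to 0.65) beside 0.86 and the mature neutrophil list −0.56 (−0.63 to −0.49) beside −0.32.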

How the data were processed

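The authors counted UMIs with Cell Ranger (version 1.3.1 and build mm10 in the submitters' processing notes) and deposited 1 unnormalized matrix of counts, 27998 genes by 8309 cells. From these counts, sums over cells were divided by the summed UMIs and scaled to 1000000 (CPM). Python 3 with numpy, scipy and pandas was used. Intervals at the 95% level were exact Poisson for sums, Clopper-Pearson for shares and conditional for ratios. A gene was compared if seen in at least 10% of either set of cells, and was called past 2-fold. There was no normalization beyond CPM and no pseudocount. The calculation was tested on simulated data.

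Named genes were the 15 highest and 10 lowest in members, the 10 highest and 10 lowest between libraries, and genes of 28 lists, of which 9 symbols were not matched. Members, lists and markers were chosen with earlier results of these data known. Scrublet (scanpy) marked 5 cells by its own threshold, too few to have worked, so doublets were kept and the 5% with the highest scores were left out as an alternative. Positions are GENCODE M21 and promoters RefSeq, both GRCm38.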

Additional observations from a re-analysis of the deposited data

Results flagged for a closer look

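The eosinophil list and *Pilra* differed from the other kept cells in opposite directions in the 2 libraries, a difference between libraries that was not tested. The log2 ratio of members over other cells was −1.46 for WT and 0.50 for KO for the eosinophil list, where *Prg3* had 32 UMIs in 8 KO members. With cells thinned to 1000 UMIs, which left out 65 KO members, the summed list was lower in both, at −1.26 and −0.68. The share of thinned cells with a UMI of the list still went opposite ways. It was 3.07% of members against 3.76% of other cells for WT, and 4.63% against 4.15% for KO. For *Pilra* it was 0.66 (0.43 to 0.89) and −0.56 (−1.16 to −0.02), from 179 and 28 UMIs.

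Cells with fewer than 500 genes took no part in the choice, yet some had a share of the 4 genes at or above the cut. They were 15 of 203 such cells for WT, 7.39% (4.19 to 11.9), and 105 of 695 for KO, 15.1% (12.5 to 18.0), with medians of 1063 and 907 UMIs over all such cells. The limits that a count of 0 allows, taken as 3 counts, are 1.48% and 0.432%.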

How the results depend on the processing

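No paired analysis was possible because each genotype had a single library. The log2 ratio of the member shares was −0.59, and it was −0.38 with every deposited cell, −0.29 in cells with 1000 or more genes, −0.33 for the highest 20%, −0.80 with 2 of the 4 genes required and −0.0035 when 10% was taken within each library, where the choice itself sets it. Genes 2-fold higher in members were 217, and 124 in cells with 1000 or more genes and 346 with genes seen in 5% of cells. Genes 2-fold lower were 194, and 32, 318, 91 and 325 in cells with 1000 or more genes, the highest 5%, the highest 20% and with genes seen in 5% of cells. Genes 2-fold higher in KO members were 29, and 50 after thinning, 77 in the highest 5%, 15 in the highest 20%, 47 within libraries, 48 on split UMIs and 80 with genes seen in 5% of cells. Genes 2-fold lower were 45, and 69, 72 and 131 in the highest 5%, on split UMIs and with genes seen in 5% of cells.

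The macrophage list had a mean log2 ratio of 1.92, and 1.35 in cells with 1000 or more genes, 2.14 in the highest 5%, 1.67 in the highest 20%, 1.82 on split UMIs and 1.82 without cells rich in C1q, MHC class II or *Retnlg* UMIs. The secondary and tertiary granule list had −1.48, and −1.41 with every deposited cell, −0.80 in cells with 1000 or more genes, −1.79 after thinning, −1.93 and −1.30 in the highest 5% and 20%, −1.52 within libraries, −1.57 on split UMIs, −1.40 with 2 of the 4 genes required and −1.81 without the highest Scrublet scores. None of these results reversed direction, but after thinning 3 lists did in KO members: eosinophil (0.50 to −0.68), B cell (0.60 to −0.0048) and NADPH oxidase (0.10 to −0.0064). Leaving out cells with C1q, MHC class II or *Retnlg* UMIs and leaving out shared barcodes were chosen after the data were seen. Of 299 values for single genes against other cells 54 moved past their counting interval, and of 240 between libraries 61 did. The causes were not tested. Members have few UMIs, and genes seen in under 10% of them were not compared.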
